A study of Homo sapiens with 9 samples.

Results

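Of the genes measured in Huh7 cells, 10 that act in or under the ATF4 arm of the stress response were examined, namely the transcription factor genes ATF4, ATF3, ATF5, DDIT3 and CEBPB, the feedback gene TRIB3, the effector gene CHAC1, and SESN2, NIBAN1 and EIF4EBP1, which act on the control of translation. They were chosen by name, with earlier results of these data known. Every probe set whose platform annotation gave 1 of these symbols alone was taken. This gave 18 probe sets for the 10 genes, out of 41091 probe sets with 1 gene symbol and 19775 genes. Huh7 is an established human liver cancer cell line, and PGG, a galloylated glucose found in plants, was given in PBS. The groups were cells kept with PBS for 48 hours, cells treated with PGG at 0.1 mg/mL for 6 hours and cells treated with PGG at 0.1 mg/mL for 48 hours, with 3 Affymetrix arrays in each, which the labels call biological replicates of this 1 cell line. For the PBS arrays another label gives a treatment time of 0 hours. PBS was not sampled at 6 h, so in the 6-hour comparison the effect of PGG and that of the time in culture cannot be told apart. Each value is an RMA signal on the log2 scale, on which a difference of 1 is a doubling.

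ATF4 is the main effector of the integrated stress response. When a kinase such as PERK or GCN2 phosphorylates the initiation factor eIF2α, most translation slows while the ATF4 mRNA, which is always present, is translated more, so that the amount of its protein need not follow its mRNA. ATF4 then switches on genes of amino acid supply, further transcription factors such as DDIT3 and ATF3, and proteins that restrain its own action or that of the growth kinase complex mTORC1. In hepatocytes and liver cancer cells the same arm answers shortage of amino acids and stress of the endoplasmic reticulum.

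The arrays of a group correlated with each other at 0.9932 to 0.9982 over all probe sets. The arrays of PGG at 48 h stood apart in a sign of RNA quality. The signal of the 3′ control probe set of ACTB exceeded that of the 5′ one by 0.96 to 1.57 on the PBS arrays and by 1.13 to 1.23 at 6 h, but by 2.14, 4.03 and 2.67 on replicates 1, 2 and 3 of PGG at 48 h, and that of GAPDH by 1.83 on replicate 2 and by at most 0.39 on every other array. Where leaving out replicate 2 changed a call of the 10 genes, or moved a called value of theirs or a printed list count by more than 1.5 times, the value without it is given. All 11 measured hepatocyte markers of 12 listed, among them AFP, ALB and SERPINA1, lay above the median signal of the arrays in each group. Their summed signal was 58044 to 60203 on the PBS arrays, 59887 to 61038 at 6 h and 52050 to 54117 at 48 h. Single hepatocyte markers changed in both directions. At 6 h 5 were higher and 1 lower, or 45.5% and 9.09%, beside 17.2% and 16.9% of all genes. At 48 h 5 were higher and 5 lower, or 45.5% each way, beside 23.9% and 24.3%. At 48 h APOB differed from PBS by -1.99 and TTR by 1.00. The 11 measured markers of other cell types, 12 listed, summed to 640 to 694, 836 to 869 and 791 to 849, and 7 of them lay above that median in each group. The lowest of the 11 markers of other cell types was the leukocyte gene PTPRC, at 3.30, 3.38 and 3.34 on the log2 scale. Of these 11, 1 was higher and 2 lower at 6 h, and 2 were higher and 3 lower at 48 h. That is 9.09% higher and 18.2% lower at 6 h, beside 17.2% and 16.9% of all genes. At 48 h it is 18.2% and 27.3%, beside 23.9% and 24.3%. The called markers of other cell types were KRT19, PECAM1, CD14, COL1A1 and HBB. The keratin gene KRT19 went from 6.07 to 8.29 and 8.09. PECAM1, an endothelial gene, read 6.09, 6.02 and 6.55, and CD14, a monocyte gene, read 6.16, 5.35 and 4.78. COL1A1, a collagen gene, read 7.52, 7.33 and 7.24, and the globin gene HBB read 5.77, 5.89 and 5.60. The part of these changes in the results that follow was not tested. In such samples fewer cells with a transcript and less of it per cell cannot be told apart.

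At 6 hours of PGG 8 of the 10 genes fell, 1 rose and ATF4 itself did not pass the test, whereas at 48 h ATF4, ATF3 and DDIT3 rose above PBS while NIBAN1, EIF4EBP1, CHAC1, SESN2 and CEBPB were lower than in PBS. These counts take the probe set with the highest mean for each gene, and rose and fell are used where the limma fit gave an adjusted p under 0.05. The gene that rose at 6 h was ATF5, whose other probe sets did not pass. The background was 17.2% of all genes higher and 16.9% lower at 6 h, and 23.9% higher and 24.3% lower at 48 h. Counted over the 18 probe sets, 11 were lower and 1 was higher at 6 h, beside 12.5% lower and 12.2% higher among all probe sets. At 48 hours 8 were lower and 3 higher, beside 20.2% lower and 18.8% higher. The median log2 difference of the 10 genes was -0.59 at 6 h and -0.18 at 48 h, against 0.01 and -0.02 over all genes. Both comparisons share the PBS arrays. As the 10 genes were chosen with earlier results of these data known, their direction is not independent evidence.

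**Figure D1:**
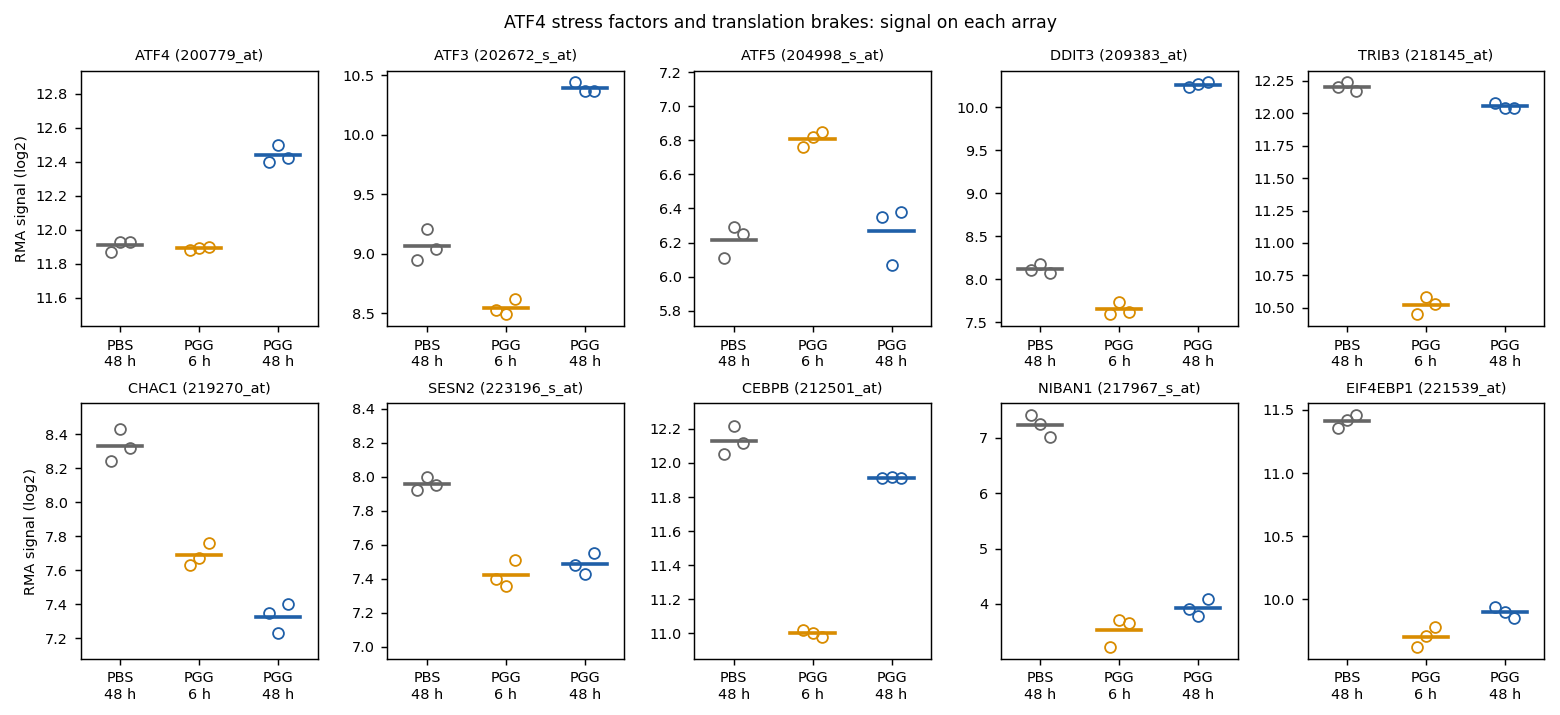
RMA signal (log2, vertical axis, scaled separately in each panel) of each of the 10 genes on the 9 arrays, each by the probe set with the highest mean. A circle is 1 array and a line the mean of 3. DDIT3 and ATF3 lay lowest at 6 h and highest at 48 h of PGG, NIBAN1 and EIF4EBP1 lay below PBS at both times, and TRIB3 and CEBPB lay lowest at 6 h.

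ATF4 was measured by 1 probe set, 200779_at. Its signal was 11.87, 11.93 and 11.93 on the PBS arrays, 11.88, 11.89 and 11.90 at 6 h of PGG and 12.40, 12.50 and 12.42 at 48 h. The PBS and 6-hour arrays overlapped, and all 3 arrays of 48 hours lay above both. The log2 difference at 6 h was -0.02 with a 95% confidence interval of -0.15 to 0.11 (adjusted p = 0.87, limma). At 48 hours ATF4 rose by 0.53 ± 0.06 (standard error, n = 3 arrays per group; adjusted p = 2.37e-05, limma), or 1.44-fold.

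DDIT3 encodes CHOP, a transcription factor that ATF4 induces and that is linked to cell death under lasting stress. Its single probe set read 8.10, 8.17 and 8.07 with PBS, 7.59, 7.73 and 7.62 at 6 h and 10.23, 10.27 and 10.29 at 48 h. The 3 groups did not overlap, and PBS lay between the 2 times of PGG. DDIT3 fell by 0.47 ± 0.06 at 6 h (standard error, n = 3; adjusted p = 0.000285, limma) and rose by 2.15 ± 0.06 at 48 h (standard error, n = 3; adjusted p = 1.72e-09, limma), a 4.44-fold higher signal.

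ATF3, a stress-induced factor of the same bZIP family that often represses its targets, followed DDIT3 by its brightest probe set only. That probe set, 202672_s_at, read 8.95, 9.21 and 9.04 with PBS, 8.53, 8.49 and 8.62 at 6 h and 10.44, 10.37 and 10.37 at 48 h, again without overlap of the groups. It fell by 0.52 at 6 h and rose by 1.33 at 48 h (adjusted p = 0.000483 and 1.30e-07, limma). The probe set 1554980_a_at gave log2 differences of -0.39 and 0.26 and 1554420_at gave 0.09 and 0.03, and neither passed at either time, with 0.36 as the lowest adjusted p of the 4 values from limma. On 1554980_a_at the 48-hour arrays read 7.33, 5.92 and 6.85, a spread wider than that of any other group on this probe set. Without PGG 48 h replicate 2, which read 5.92, the difference from PBS at 48 h was 0.65 (adjusted p = 0.00326, limma) and that at 6 h passed too, at -0.39 (adjusted p = 0.0368, limma). With the mean of the 3 probe sets ATF3 differed by -0.27 at 6 h (adjusted p = 0.068, limma) and rose by 0.54 at 48 h (adjusted p = 0.00103, limma).

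ATF5 and CEBPB encode further bZIP factors, ATF5 being a relative of ATF4 that is also controlled at translation, and CEBPB encoding C/EBPβ, a partner of ATF4 and a factor of the acute-phase response in liver. ATF5 was the gene that rose at 6 h, by its probe set 204998_s_at. It read 6.11, 6.29 and 6.25 with PBS, 6.76, 6.82 and 6.85 at 6 h and 6.35, 6.07 and 6.38 at 48 h, so that the 6-hour arrays stood apart and the other groups overlapped. The rise at 6 h was 0.59 (adjusted p = 0.000555, limma), and at 48 h the log2 difference was 0.05, with a 95% confidence interval of -0.15 to 0.25. This probe set had the highest mean of the ATF5 probe sets only through its 6-hour arrays. With PBS and at 48 h 230938_x_at was brighter, at 6.40 and 6.29 against 6.22 and 6.27. At 6 h 230938_x_at differed from PBS by -0.14 (adjusted p = 0.23, limma). The 3 other ATF5 probe sets did not pass at either time, with differences between -0.17 and 0.30, and with the mean of the 4 probe sets the difference at 6 h was 0.17 (adjusted p = 0.15, limma).

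CEBPB read 12.05, 12.22 and 12.12 with PBS, 11.02, 11.0 and 10.98 at 6 h and 11.91, 11.92 and 11.91 at 48 h. The 6-hour arrays lay at least 0.89 below every other array, while the gap between PBS and 48 hours was 0.13. CEBPB fell by 1.13 at 6 h (adjusted p = 5.45e-07, limma) and fell by 0.22 at 48 h (adjusted p = 0.0178, limma). The call at 48 h was lost when the values were quantile normalized again, at -0.14 (adjusted p = 0.11, limma), and without PBS 48 h replicate 2, at -0.17 (adjusted p = 0.072, limma).

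TRIB3 encodes a pseudokinase that binds ATF4 and holds its activity back, and it is among the most responsive targets of ATF4 and CHOP. Its probe set 218145_at read 12.20, 12.24 and 12.17 with PBS, 10.45, 10.58 and 10.53 at 6 h and 12.08, 12.04 and 12.04 at 48 h. The 6-hour arrays lay far below the rest. The signal fell by 1.68 at 6 h, or 3.21-fold (adjusted p = 4.68e-08, limma), and differed from PBS by -0.15 at 48 h (adjusted p = 0.080, limma), with a 95% confidence interval of -0.29 to -0.01. With a trended robust fit the latter value passed (adjusted p = 0.0137, limma). The second probe set, 1555788_a_at, read 9.79, 9.52 and 9.57 with PBS, 7.70, 7.65 and 7.65 at 6 h and 9.29, 7.12 and 8.83 at 48 h. It fell by 1.96 at 6 h and fell by 1.21 at 48 h (adjusted p = 0.00476 and 0.0385, limma). Without PGG 48 h replicate 2 the 48-hour difference was -0.57 (adjusted p = 0.00532, limma), while leaving out any 1 of the PBS or PGG 6 h arrays ended the call (adjusted p from 0.057 to 0.103, limma), as did the trended robust fit, the methods' t-test and the fit of the 2 groups alone.

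CHAC1, which encodes an enzyme that breaks down glutathione and is a target of ATF4, fell at both times and was lower at 48 h than at 6 h. It read 8.24, 8.43 and 8.32 with PBS, 7.63, 7.67 and 7.76 at 6 h and 7.35, 7.23 and 7.40 at 48 h, and no groups overlapped. The log2 differences were -0.64 ± 0.08 at 6 h and -1.0 ± 0.08 at 48 h (standard errors, n = 3; adjusted p = 9.08e-05 and 9.48e-07, limma).

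A core of the C/EBP-ATF response element, to which ATF4 and its partners bind, was searched for in the promoters, where genes of the ATF4 response can carry it. The letters TGATGNAA, on either strand, stood in 3.62% of all 35116 windows of 300 bases in RefSeq (GRCh38.p14), each running from 250 bases before to 50 after a start of transcription, and in 2 of 17 windows of 9 of the genes (EIF4EBP1 was not matched), several of which overlap. These 2 windows, of a gene that rose and of one that fell by 48 hours, are printed with the match in capitals, one of ATF3 (chr1:212565157-212565456, plus strand) with the match at -191, and one of CHAC1 (chr15:40953221-40953520, plus strand) with the match on the opposite strand at -209. A second ATF3 window, at a later start, held no match. The letters TGACGTCA, the cyclic AMP response element, stood in 1.85% of all windows and in 0 of the 17. These are matches of letters only.
ATF3: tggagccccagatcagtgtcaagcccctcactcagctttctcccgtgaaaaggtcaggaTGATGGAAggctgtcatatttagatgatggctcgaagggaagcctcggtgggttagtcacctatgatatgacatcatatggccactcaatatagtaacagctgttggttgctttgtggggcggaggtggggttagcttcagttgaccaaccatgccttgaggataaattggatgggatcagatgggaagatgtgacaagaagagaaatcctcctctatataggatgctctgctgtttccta
CHAC1: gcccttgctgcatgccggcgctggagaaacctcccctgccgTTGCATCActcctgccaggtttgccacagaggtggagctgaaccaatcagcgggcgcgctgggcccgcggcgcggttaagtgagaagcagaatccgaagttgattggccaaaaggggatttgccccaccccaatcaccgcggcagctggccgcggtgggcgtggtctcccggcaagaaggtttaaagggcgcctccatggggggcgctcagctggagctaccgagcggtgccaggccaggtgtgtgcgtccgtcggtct

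SESN2, NIBAN1 and EIF4EBP1, which bear on translation, were lower than in PBS at both times by every probe set. SESN2 encodes sestrin 2, a leucine sensor that holds mTORC1 back. Its probe set 223196_s_at read 7.92, 8.0 and 7.95 with PBS, 7.40, 7.36 and 7.51 at 6 h and 7.48, 7.43 and 7.55 at 48 h, and both PGG groups lay below PBS and overlapped each other. It fell by 0.53 and fell by 0.47 (adjusted p = 0.000142 and 0.000151, limma), and the second probe set, 223195_s_at, fell by 0.70 and fell by 0.58 (adjusted p = 0.00649 and 0.0118, limma). Without PGG 48 h replicate 2 the 48-hour value of the second probe set was -0.38 (adjusted p = 0.0192, limma), and the methods' t-test on all arrays did not call it.

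NIBAN1, formerly FAM129A, encodes a stress-induced protein linked to the phosphorylation of translation factors, and it had the largest difference of the 10 genes at both times. Its probe set 217967_s_at read 7.41, 7.25 and 7.01 with PBS, 3.22, 3.71 and 3.65 at 6 h and 3.90, 3.78 and 4.09 at 48 h. The lowest PBS array stood 2.92 above the highest array of 48 hours. The signal fell by 3.70 ± 0.14 and fell by 3.30 ± 0.14 (standard errors, n = 3; adjusted p = 5.08e-08 and 1.55e-08, limma). The second probe set, 217966_s_at, fell by 1.68 and fell by 1.5, from 5.04 ± 0.19 (SD, n = 3) with PBS (adjusted p = 4.90e-06 and 3.05e-06, limma). With PGG the signals of both lay near or under 3.80 to 3.84, the lower quartile of all probe sets on an array, and no detection calls were used here, so whether they stood above background is not known and no fold is given. Among all other genes the pair of log2 differences at 6 and 48 hours nearest to that of NIBAN1 was that of VCAN, which encodes the matrix proteoglycan versican, at -3.55 and -3.61, followed by ALDH1L2, a mitochondrial folate enzyme, at -3.79 and -2.22, and SLCO1B3, a hepatocyte uptake carrier, at -2.57 and -3.9, with Euclidean distances of 0.34, 1.08 and 1.28 on the log2 scale. These distances rest on the same dim signals of NIBAN1.

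EIF4EBP1 encodes 4E-BP1, which binds the cap-binding factor eIF4E and blocks translation until mTORC1 phosphorylates it. It read 11.36, 11.42 and 11.46 with PBS, 9.62, 9.71 and 9.78 at 6 h and 9.94, 9.90 and 9.85 at 48 h. Both PGG groups lay at least 1.42 below the lowest PBS array. EIF4EBP1 fell by 1.71 ± 0.07 and fell by 1.52 ± 0.07 (standard errors, n = 3; adjusted p = 5.20e-08 and 1.70e-08, limma).

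**Figure D2:**
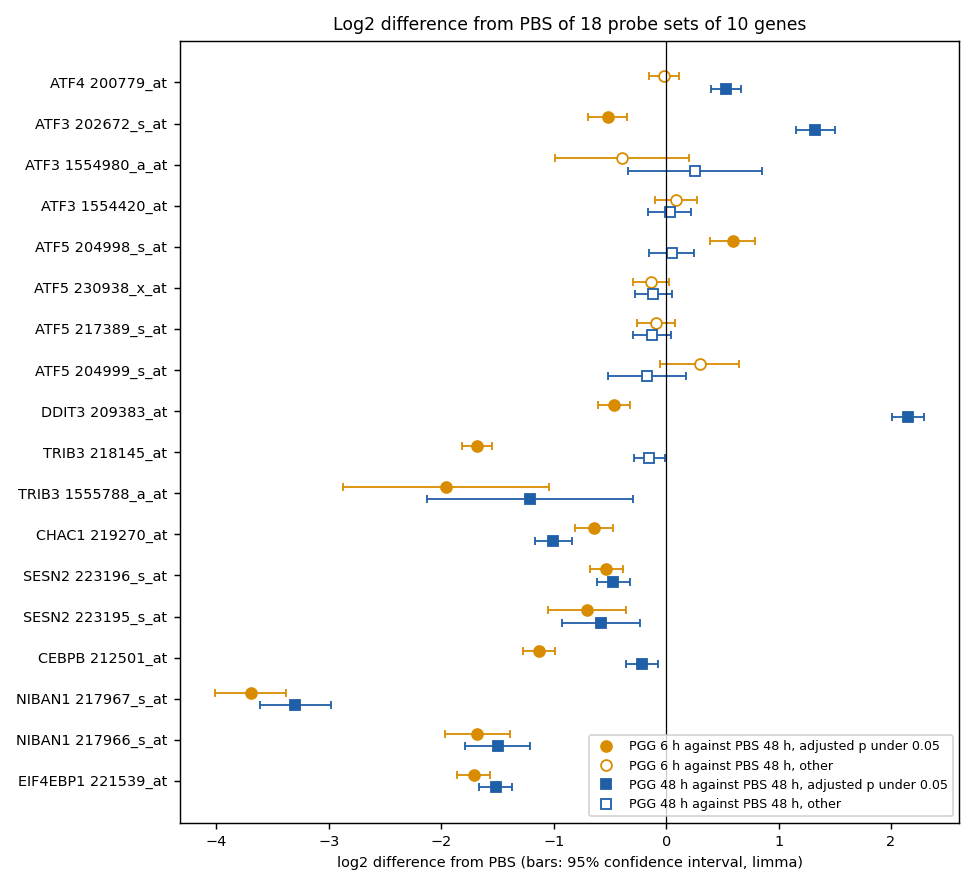
Log2 difference from PBS (horizontal axis) of each of the 18 probe sets at 6 h (circles) and 48 hours (squares) of PGG, with 95% confidence intervals from limma. Filled symbols passed an adjusted p of 0.05. All probe sets of NIBAN1, EIF4EBP1, CHAC1 and SESN2 were lower at both times, while 1 of 3 probe sets of ATF3 and 1 of 4 of ATF5 have filled symbols.

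The 2 times of PGG were then compared directly, by a contrast in the same fit. As PBS was not sampled at 6 h, the time on PGG and the time in culture cannot be told apart here. Of the 18 probe sets 6 were higher and 3 lower at 48 h than at 6 h, beside 18.0% and 18.4% of all probe sets. By gene, 7 were higher and 2 lower, beside 23.6% and 23.4% of all genes. DDIT3 differed most, at 2.62 (adjusted p = 1.01e-09, limma), followed by ATF3 at 1.85, TRIB3 at 1.53, CEBPB at 0.91 and ATF4 at 0.55, each with an adjusted p of 1.96e-05 or lower from limma. ATF5 fell by 0.54 and CHAC1 fell by 0.36 from 6 to 48 hours (adjusted p = 0.000534 and 0.00274, limma). The ATF5 value is that of 204998_s_at, which had the highest mean only through its 6-hour arrays, so this choice favours a fall. ATF5 230938_x_at stood at 0.02 and 217389_s_at at -0.04 (adjusted p = 0.85 and 0.77, limma). With the mean of its probe sets ATF5 fell by 0.26 (adjusted p = 0.0198, limma). EIF4EBP1 passed at 0.19 (adjusted p = 0.0417, limma), a call that was lost with the replicate block (adjusted p = 0.067, limma) and without any 1 of 7 arrays. NIBAN1 stood at 0.40 with an adjusted p of 0.051 over probe sets and 0.032 over genes from limma, and SESN2 at 0.06, with a 95% confidence interval of -0.08 to 0.21. The third lower probe set, ATF5 204999_s_at, fell by 0.47 (adjusted p = 0.0393, limma), and without PGG 48 h replicate 2 it stood at -0.27 (adjusted p = 0.11, limma). Without that array 9 probe sets were higher, among them ATF3 1554980_a_at at 1.04, TRIB3 1555788_a_at at 1.39, SESN2 223195_s_at at 0.33 and NIBAN1 217967_s_at at 0.47.

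On ATF3 1554980_a_at, TRIB3 1555788_a_at and SESN2 223195_s_at the 3 arrays of 48 hours stood in the reverse order of the ACTB difference. The brighter probe sets of ATF3 and TRIB3 and the probe set 223196_s_at of SESN2 spanned 0.07, 0.04 and 0.12 over these arrays. The part of RNA quality in the differences was not tested. Without replicate 2, the 48-hour values of the highest-mean probe sets of ATF4, ATF3 and DDIT3 were 0.50, 1.34 and 2.15, and those of NIBAN1, EIF4EBP1 and CHAC1 were -3.23, -1.52 and -0.96.

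**Figure D3:**
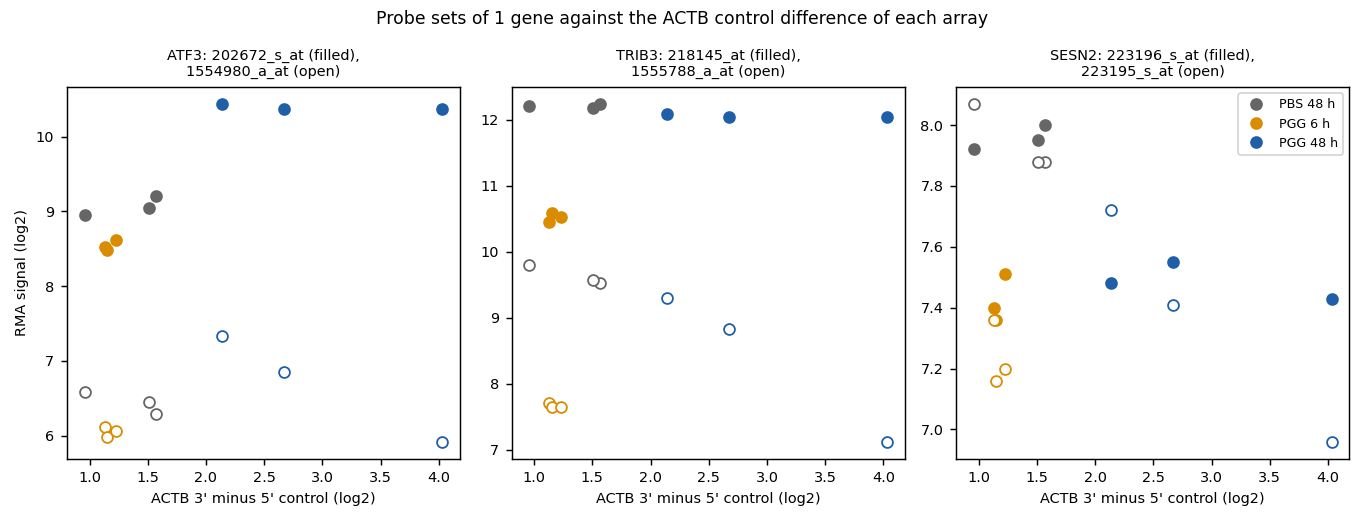
RMA signal (log2, vertical axis) of the paired probe sets of ATF3, TRIB3 and SESN2 on each array against the 3′ minus 5′ difference of the ACTB control (log2, horizontal axis). Each point is 1 array, coloured by group. Open circles of PGG at 48 h lay lowest on the array with the ACTB difference of 4.03, whereas the filled circles of these 3 arrays spanned at most 0.12 in each gene.

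Upstream of ATF4, genes of the eIF2α kinases, the phosphatase that reverses them and the exchange factor eIF2B were taken as a list, and 6 of 20 measured were higher and 4 lower at 6 h, with 9 up and 5 down at 48 h. The shares lower, 20% and 25%, were near the 16.9% and 24.3% of all genes, and the shares higher were 30% and 45%, beside 17.2% and 23.9%. EIF2AK3, which encodes PERK, the kinase of endoplasmic reticulum stress, rose by 1.11 and by 2.67 (adjusted p = 5.66e-07 and 1.49e-10, limma). EIF2AK1, which encodes the heme-sensitive kinase HRI, rose by 0.73 and by 1.28. PPP1R15A, which encodes GADD34, the inducible subunit of the phosphatase, fell by 0.59 at 6 h and rose by 1.17 at 48 h (adjusted p = 0.00887 and 3.11e-05, limma), with an SD of 0.40 over the 3 arrays of 48 hours. Without PGG 48 h replicate 2 its 48-hour value was 1.40. IMPACT, an inhibitor of GCN2, fell by 0.62 and fell by 1.53, and the eIF2B subunit gene EIF2B3 fell by 1.35 at 48 h. Without PGG 48 h replicate 2 the number lower at 6 h was 7.

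Of 42 measured other genes of the ATF4 response, 44 listed, 36 were lower and 2 higher at 6 h, and 25 were lower and 10 higher at 48 h. That is 85.7% and 59.5% lower, beside 16.9% and 24.3% of all genes, and 4.76% and 23.8% higher, beside 17.2% and 23.9%. The median log2 difference was -0.93 at 6 h and -0.32 at 48 h. This list and the other gene lists were chosen with earlier results of these data known, so their directions are not independent evidence. The asparagine synthetase gene ASNS fell by 2.82 at 6 h and fell by 0.38 at 48 h, and CTH, which makes cysteine, fell by 2.43 and fell by 0.54. The cystine carrier gene SLC7A11 fell by 1.35 and fell by 1.55, and PCK2, the mitochondrial enzyme that makes phosphoenolpyruvate, fell by 1.44 and fell by 1.56. In contrast KLHL24 fell by 0.30 at 6 h (adjusted p = 0.0395, limma) and rose by 2.83 at 48 h, and HERPUD1, a gene of protein disposal at the endoplasmic reticulum, rose by 0.72 and by 1.74. The stress factor gene NUPR1 differed by 0.15 at 6 h (adjusted p = 0.27, limma) and rose by 1.72 at 48 h. Between 6 and 48 hours 28 of the 42 were higher and 4 lower, or 66.7% and 9.52%, beside 23.6% and 23.4% of all genes.

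Of 7 measured genes described downstream of DDIT3, 8 listed, 1 was higher and 2 were lower at 6 h, and 6 were higher and 0 lower at 48 h, with medians of -0.15 and 1.17. The 6 make 85.7% of this short list, beside 23.9% of all genes. At 6 h the shares were 14.3% higher and 28.6% lower, beside 17.2% and 16.9% of all genes. ERO1A, an oxidase of the endoplasmic reticulum, rose by 0.65 and by 2.18, DNAJC3, an inhibitor of PERK, rose by 1.46 at 48 h, and BCL2L11, which encodes the pro-apoptotic BIM, rose by 1.41 at 48 h. PPP1R15A and DNAJC3 also belong to the list of eIF2α regulators, and DNAJC3 is counted again in the list that follows. Of 19 measured genes of the XBP1 and ATF6 arms of the unfolded protein response, 20 listed, 7 were higher and 7 lower at 6 h, and 13 were higher and 3 lower at 48 h. The shares were 36.8% each way at 6 h, and 68.4% higher and 15.8% lower at 48 h, beside the same shares of all genes as for the other lists. DNAJB9, a cochaperone, rose by 0.59 and by 2.00, and ERN1, which encodes the sensor IRE1α, fell by 1.32 at 6 h and rose by 1.01 at 48 h. XBP1 itself fell by 0.36 and fell by 1.0, and HYOU1, a chaperone, fell by 0.56 and fell by 0.68.

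Around EIF4EBP1 and SESN2, of 31 measured genes of cap-dependent translation and mTORC1, 33 listed, 6 were higher and 5 lower at 6 h, and 14 were higher and 10 lower at 48 h. At 6 h these shares, 19.4% and 16.1%, were near the 17.2% and 16.9% of all genes, and at 48 h they were 45.2% and 32.3%, beside 23.9% and 24.3%. The counts include EIF4A2, PDCD4 and RRAGB, whose group means reached at most 2.67, 2.68 and 3.00. Those signals lie under the lower quartile of the arrays, so whether they stood above background is not known. RRAGB is among those lower at 48 h (adjusted p = 0.046, limma), a call lost without PGG 48 h replicate 2 (adjusted p = 0.11, limma). RRAGC and RRAGD, which encode GTPases that bring mTORC1 to the lysosome, fell by 1.08 and fell by 0.47 at 6 h and rose by 2.24 and by 3.05 at 48 h. DEPTOR, an inhibitor of mTOR, fell by 0.74 at 6 h and rose by 2.42 at 48 h. EIF4E, the partner of 4E-BP1, fell by 0.84 at 48 h, and EIF4G1, the scaffold that 4E-BP1 displaces, fell by 1.27, with an SD of 0.59 over the 3 arrays of 48 hours against 0.015 with PBS. Without PGG 48 h replicate 2 the EIF4G1 value was -0.94 (adjusted p = 2.72e-06, limma). Of 21 measured paralogs of the 10 genes, 23 listed, 4 were higher and 8 lower at 6 h, and 8 higher and 6 lower at 48 h. That is 19% higher and 38.1% lower at 6 h, beside 17.2% and 16.9% of all genes. At 48 h it is 38.1% and 28.6%, beside 23.9% and 24.3%. The shares higher at 6 h and lower at 48 h were near those of all genes. EIF4EBP2, which encodes 4E-BP2, rose by 0.67 and by 0.48, while EIF4EBP1 fell at both times. SESN1 rose by 0.37 and by 0.67, while SESN2 fell at both times. CHAC2 fell by 2.33 at 48 h and CEBPG, a partner of ATF4, fell by 1.24 at 6 h and by 0.33 at 48 h.

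**Figure D4:**
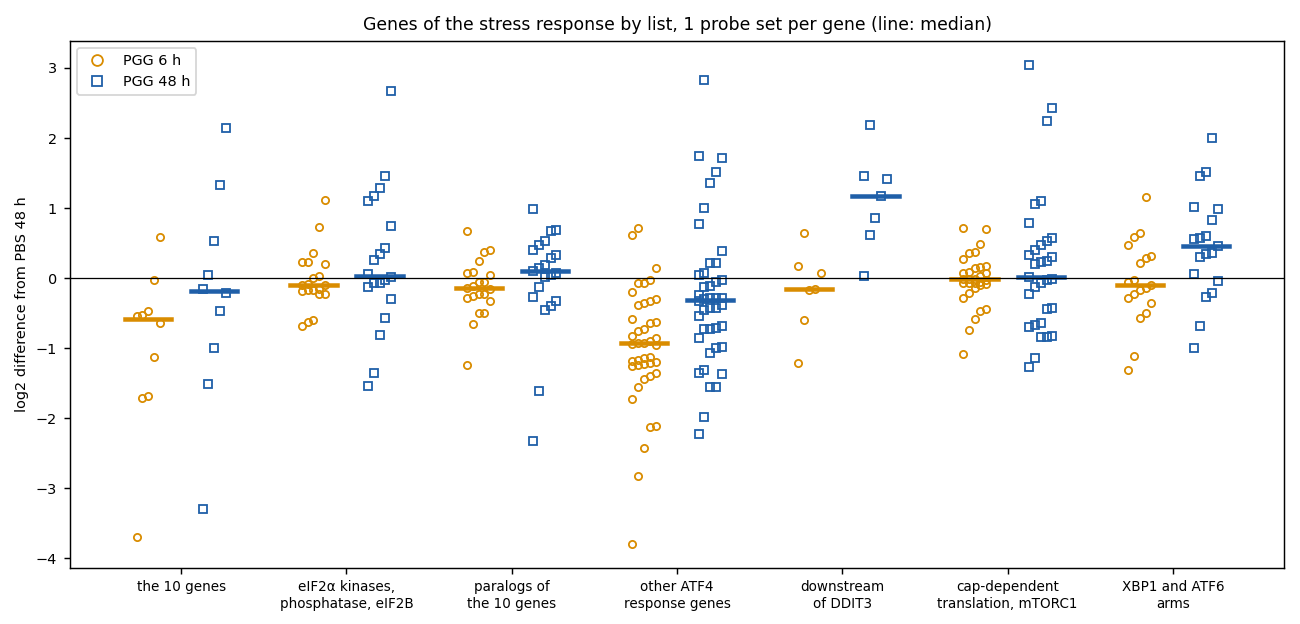
Log2 difference from PBS (vertical axis) of the 10 genes and of every measured gene of 6 lists, by highest-mean probe set, at 6 h (circles) and 48 hours (squares) of PGG. Lines are medians. The other ATF4 response genes had a median of -0.93 at 6 h and -0.32 at 48 h, and the genes downstream of DDIT3 a median of 1.17 at 48 h.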

How the data were processed

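Total RNA of Huh7 cells was hybridized to 9 Affymetrix arrays. Per the labels, the authors ran RMA with Affymetrix Expression Console (version not stated in the sources read) and deposited the log2 signal of each probe set. RMA makes the distributions of the arrays alike, so a shift shared by most genes would not be seen. Groups and replicate numbers were taken from the sample titles.

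All 54613 probe sets other than 62 controls were fitted with limma 3.58.1 in R 4.3.3 (lmFit with 1 mean per group over the 9 arrays, eBayes, Benjamini-Hochberg adjustment), and again with 1 probe set per gene, that of the highest mean, over 19775 genes. Calls are at an adjusted p under 0.05. Symbols came from the platform annotation, and 41037 probe sets were found by Entrez identifier in RefSeq (GRCh38.p14), with 0 symbols changed. The methods' t-test, with thresholds of 0.005 and 1.5, was an alternative. The other alternatives were a replicate block, array weights, a trended robust fit, 2 further scalings, a filter on dim probe sets, only the 2 groups compared, the mean of a gene's probe sets, and each array left out. Named genes were the 10 members and, per list, up to 4 higher and 4 lower genes by size in each comparison with PBS. The 10 genes and the lists were chosen with earlier results of these data known. NIBAN1, the member with the largest difference, was also set beside its 3 nearest genes by Euclidean distance. Leaving out PGG 48 h replicate 2 from the list counts was an alternative chosen after the ACTB and GAPDH controls were seen, and from single list genes after their spread was seen. The limma fit over probe sets was tested on simulated data, and the other steps were not. Arrays have no counts, so the 3 arrays per group limit the precision, and p-values measure only the spread between these arrays.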

Additional observations from a re-analysis of the deposited data

Results flagged for a closer look

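The signal with PGG differed between 48 and 6 hours for 8 of the 10 genes, each by its highest-mean probe set, with p adjusted over all probe sets in the limma fit of PGG 48 h against PGG 6 h. PBS was not sampled at 6 h, so the time on PGG and the time in culture cannot be told apart in this contrast. Adjusted over genes NIBAN1 passed too (adjusted p = 0.032), which makes 9. No flag was set here for single arrays far from the others in groups of 3 arrays. PGG 48 h replicate 2, which stood out in the ACTB control, and every other array were left out in turn as alternatives. DDIT3 was 2.62 higher at 48 than at 6 h and ATF3 1.85 higher, and both fell against PBS at 6 h and rose at 48 h (adjusted p = 1.01e-09 and 1.83e-08 between the times). TRIB3 was 1.53 higher, CEBPB 0.91 higher and ATF4 0.55 higher (adjusted p = 1.34e-08, 5.95e-07 and 1.96e-05). EIF4EBP1 was 0.19 higher (adjusted p = 0.0417), a call that was lost with the replicate block, with the 2 groups alone, after quantile normalization, with array weights, with the methods' t-test and without any 1 of 7 of the 9 arrays. ATF5 differed by -0.54 and CHAC1 by -0.36 (adjusted p = 0.000534 and 0.00274). The ATF5 probe set had the highest mean only through its 6-hour arrays, and ATF5 230938_x_at and 217389_s_at did not pass, at 0.02 and -0.04. All p-values are from limma.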

How the results depend on the processing

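At the study's threshold the methods' t-test gave, for the 18 probe sets, 0 higher and 4 lower at 6 h, 1 higher and 2 lower at 48 h, and 3 higher and 0 lower between the times. For the 10 genes it gave 0 and 3, 1 and 2, and 3 and 0. The study's own table lists EIF4EBP1 and both probe sets of NIBAN1 as lower at both times. At 48 h NIBAN1 217966_s_at stood here at -1.5, on the edge of the threshold, from values deposited with 2 decimals. The t-test here was adjusted by Benjamini-Hochberg, where the study gave q-values. The share of all probe sets passing at this threshold was not counted. With the mean of a gene's probe sets 0 genes were higher and 7 lower at 6 h, as ATF5 and ATF3 lost their calls, and 6 were lower at 48 h, as TRIB3 passed (-0.68, adjusted p = 0.019, limma). The same t-test at an adjusted p under 0.05 gave 1 probe set higher and 11 lower at 6 h and 3 higher and 7 lower at 48 h. With 1 array left out, the probe sets higher and lower ranged from 1 to 1 and 11 to 12 at 6 h, 3 to 4 and 6 to 8 at 48 h, and 5 to 9 and 2 to 3 between the times, and the genes from 1 to 1 and 8 to 8, 3 to 3 and 5 to 5, and 5 to 7 and 2 to 2.

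With the replicate block the counts of probe sets were 1 higher and 11 lower at 6 h, 3 and 8 at 48 h, and 6 and 2 between the times. The deviations of same-numbered arrays correlated between -0.09 and 0.16 and those of other arrays between -0.18 and 0.11, so the numbers were not taken as pairs.

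Of 909 single values under the alternatives 846 kept direction and side of the threshold, 34 were no longer called, 20 became called and 9 turned sign with 1 array left out. All 9 were values that did not pass, in the ranges -0.050 to 0.085 for ATF3 1554420_at at 48 h, -0.058 to 0.65 for ATF3 1554980_a_at at 48 h, -0.007 to 0.15 for ATF5 204998_s_at at 48 h, -0.28 to 0.023 for ATF5 204999_s_at at 48 h, -0.073 to 0.002 for ATF5 217389_s_at between the times, -0.020 to 0.058 for ATF5 230938_x_at between the times and -0.055 to 0.33 for SESN2 223195_s_at between the times. The cause was not tested. Nearness to the low end of the signal limits NIBAN1 and the dimmer ATF5 probe sets.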
